A study of Homo sapiens with 96 samples.

Results

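The 7 genes described here are KLF2, KLF3, KLF6, KLF9, KLF10, KLF12 and KLF13, members of the Kruppel-like factor family, chosen by their gene symbols. On the Affymetrix HG-U133 Plus 2.0 array 29 of the 54675 probe sets carry one of these symbols, 8 for KLF12, 5 each for KLF6 and KLF9, 4 each for KLF3 and KLF13, 2 for KLF2 and 1 for KLF10. Transcript levels were measured on 96 arrays in 4 established B-cell lymphoma lines, 24 arrays per line, after 4 h in culture with an antibody or without one. Mantle cell lymphoma gave REC1 and Z138, whereas diffuse large B-cell lymphoma gave SUDHL4 and OciLy18. The B-cell receptor of SUDHL4 is described as IgG in place of IgM.

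The antibodies were anti-IgM, its F(ab')2-fragment and anti-IgG, which bind the B-cell receptor, the mouse antibody LT20 and the therapeutic antibody rituximab, which both bind CD20, and a human IgG isotype antibody. For REC1 alone there was in addition a F(ab')2-fragment made from rituximab. The sample labels give 10 µg/ml for every antibody, whereas the methods of the study describe a lower, equimolar dose of the anti-IgM fragment. Each treated group held 3 arrays. Its reference was the untreated controls 1 to 3 of the same line, except that anti-IgG in SUDHL4, OciLy18 and Z138 was set against the untreated controls 4 to 6. The treatments of a line therefore share control arrays. Each line is a single culture model, and nothing states whether the 3 replicates were separate cultures, so that SD and p values measure only the spread between arrays.

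Kruppel-like factors bind CACCC and GC boxes with zinc fingers at their C-terminal end, and they differ in the cofactors they recruit. KLF2 and KLF6 are mainly activators. KLF2 is known in lymphocytes as a factor of quiescence and of trafficking, and KLF6 as an early response gene of many cell types. KLF9, KLF10 and KLF13 recruit the co-repressor SIN3A, whereas KLF3 and KLF12 recruit the co-repressor CtBP. KLF10 was first described as an early gene induced by TGF-beta.

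The deposited signals are on a linear scale, and every array had been scaled to nearly the same total, between 8528613 and 8530013. A probe set was tested in a line if its mean signal exceeded 100 in at least 1 group, and it was called at an adjusted p below 0.05 with limma, a change above 2-fold and a mean above 100 in 1 of the 2 groups compared. By this limit SUDHL4 had 4 of the 7 genes tested (8 probe sets), REC1 6 (10), OciLy18 5 (8) and Z138 6 (9). KLF6, KLF10, KLF12 and KLF13 were tested in all 4 lines. KLF2 was left out in SUDHL4, KLF3 was tested only in REC1, and KLF9 only in Z138. Of the 35 pairs of a tested probe set and a line, 10 passed the limit only through treated groups, so that a call there could only be a rise. These were KLF10 and KLF3 in REC1, KLF2 in OciLy18, KLF9 in Z138, and weaker probe sets of KLF6 in SUDHL4, REC1 and Z138, of KLF12 in SUDHL4 and of KLF13 in OciLy18. Each gene is described by its strongest probe set in the line, unless another is named.

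Of 5 B-cell markers 4 were matched, MS4A1, PAX5, CD79A and CD79B, and all exceeded 100 in each line. No monocyte or NK-cell marker did, with CD14 at 0 on 53 arrays. Of 5 T-cell markers only CD3D exceeded 100, and only in REC1. There the summed T-cell markers ranged from 676 to 825 after anti-IgM, 736 to 837 after its fragment, 819 to 852 after anti-IgG and 988 to 1172 after LT20, against 1543 to 1618 in controls. The summed B-cell markers of REC1 ranged from 7700 to 8635 after anti-IgM, 6781 to 6885 after its fragment, 7977 to 9307 after anti-IgG and 9884 to 10107 after LT20, against 10946 to 11853 in controls. In Z138 the summed B-cell markers ranged from 4841 to 5318 after the anti-IgM fragment, against 5872 to 6270 in controls 1 to 3, and from 5921 to 6213 after anti-IgG, against 6444 to 6793 in controls 4 to 6. Their part in the changes of the factors was not tested.

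KLF6 and KLF13 were called most often, and untreated KLF2 had the widest range among the lines of the factors tested in untreated cells. The bases upstream of the annotated start of KLF2, KLF6 and KLF13 are therefore shown. They are taken from the RefSeq promoter table (GRCh38.p14), which held 5 of the 7 genes. Each is 250 bases read 5′ to 3′ on the strand of the gene, with matches on either strand to any of 6 motifs in capitals.
KLF2 (chr19:16324576-16324825, plus strand): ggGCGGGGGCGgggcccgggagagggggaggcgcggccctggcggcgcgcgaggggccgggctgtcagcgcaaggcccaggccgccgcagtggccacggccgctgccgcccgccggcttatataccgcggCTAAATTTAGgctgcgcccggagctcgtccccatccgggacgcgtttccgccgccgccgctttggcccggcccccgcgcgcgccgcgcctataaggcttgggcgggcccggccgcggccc
KLF6 (chr10:3785210-3785459, minus strand): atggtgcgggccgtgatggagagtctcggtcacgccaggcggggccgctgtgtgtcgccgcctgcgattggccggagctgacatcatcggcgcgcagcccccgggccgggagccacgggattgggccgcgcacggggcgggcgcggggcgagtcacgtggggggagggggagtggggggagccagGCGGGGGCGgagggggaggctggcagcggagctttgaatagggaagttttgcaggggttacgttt
KLF13 (chr15:31326585-31326834, plus strand): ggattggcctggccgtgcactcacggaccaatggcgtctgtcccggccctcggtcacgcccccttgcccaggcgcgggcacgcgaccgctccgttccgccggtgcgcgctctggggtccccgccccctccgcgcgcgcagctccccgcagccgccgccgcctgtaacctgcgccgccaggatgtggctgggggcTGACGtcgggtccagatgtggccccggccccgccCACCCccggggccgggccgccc
The motifs searched were the MEF2 site, the serum response (CArG) site, the CRE half-site TGACG, AP-1 as TGANTCA, EGR as GCGNGGGCG and CACCC. In KLF2 the capitals mark an EGR match at the 5′ end and a palindromic MEF2 match, which reads the same on both strands and begins 120 bases before the start. KLF6 has 1 EGR match, 65 bases before the start, and KLF13 has a CRE half-site and a CACCC match. No match to the serum response or AP-1 motif was found in the 3 windows. Among 35116 upstream windows of the same length, 2.8% held the MEF2 motif, 1.16% the serum response motif, 21.2% the CRE half-site, 6.57% the AP-1 motif, 8.41% the EGR motif and 54.7% CACCC. The matches describe these letters only.

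Over the 25 comparisons of an antibody with its controls, the factors rose or fell in 32 gene and treatment pairs. KLF6 rose in 8 comparisons and KLF10 in 6, and neither fell in any. KLF13 fell in 7 and KLF2 in 4, and neither rose in any. KLF12 rose in 3 comparisons of SUDHL4 and fell in 3 of REC1, KLF9 rose in 1 and KLF3 was called in 0 of 7. By the signal limit, KLF10 in REC1, KLF9 in Z138 and the KLF12 probe set called in SUDHL4 could only be called as rises. REC1 held 16 of these calls (6 higher, 10 lower), SUDHL4 7 (all higher), Z138 7 (3 higher, 4 lower) and OciLy18 2 (both higher).

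**Figure D1:**
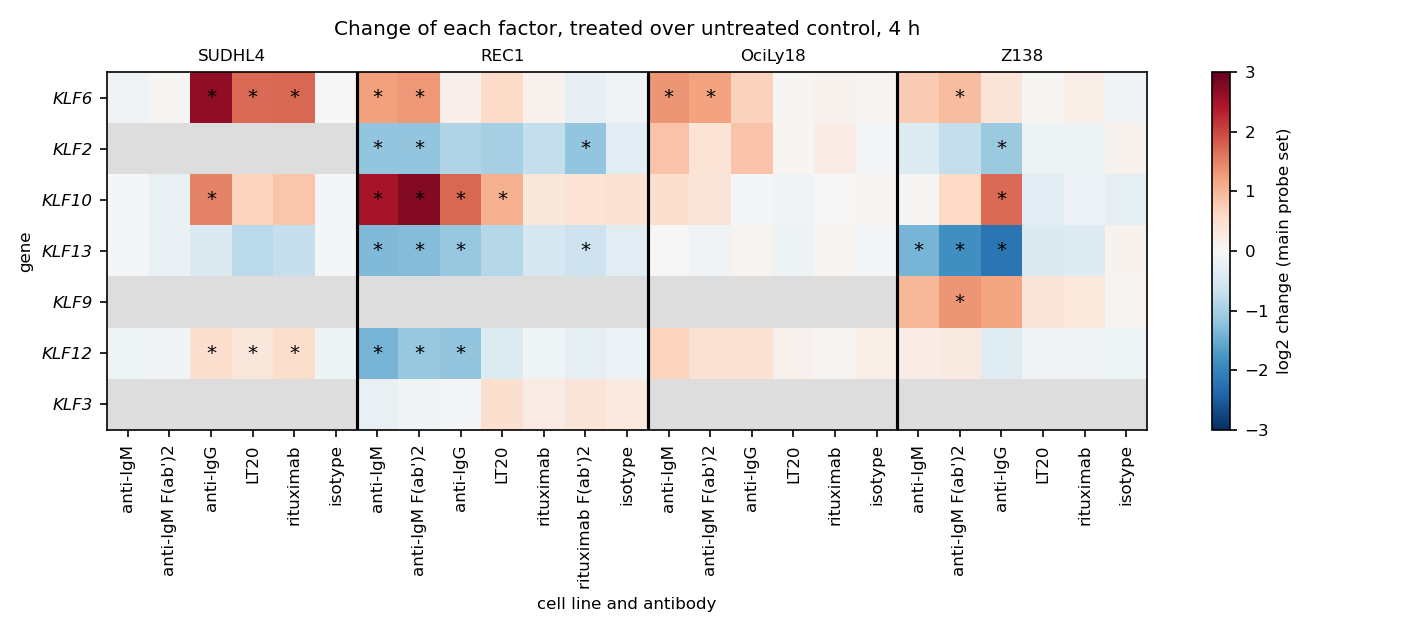
Log2 change of the main probe set of each gene (rows) for each antibody and line (columns), treated over untreated, with red for higher, blue for lower and grey for genes not tested in the line. Stars mark genes with at least 1 called probe set, and 16 of the 32 stars lie in REC1.

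In SUDHL4, anti-IgG changed 3 of 4 tested factors and 6 of their 8 probe sets, against 7.51% of all probe sets tested. LT20 changed 2 factors and 5 probe sets (6.03% of all), and rituximab 2 factors and 5 probe sets (5.29% of all). The KLF6 probe sets 208960_s_at and 208961_s_at and the KLF12 probe set 214276_at passed the signal limit only through these antibodies. Their calls are part of these counts and could only be rises, and the KLF12 calls rest on 214276_at alone. Anti-IgM and its fragment changed none, with 0.0306% and 0.360% of all probe sets called. The isotype antibody also changed none (0% of all). At an unadjusted p below 0.05 limma counted 0 of 8 probe sets for anti-IgM, 3 for the fragment and 0 for the isotype.

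In REC1, anti-IgM changed 5 of 6 tested factors and 6 of their 10 probe sets, against 12.0% of all. Its fragment changed the same number of factors with 9 probe sets (14.4% of all). Anti-IgG changed 3 factors and 4 probe sets (10.6% of all). LT20 changed 1 factor and 1 probe set (5.12% of all), and the rituximab fragment 2 factors and 2 probe sets (2.89% of all). KLF10, KLF3 and the KLF6 probe set 208960_s_at passed the signal limit only through treated groups and could only be called as rises. Whole rituximab and the isotype antibody changed none, with 1.59% and 0.611% of all called and 3 and 2 of 10 probe sets at an unadjusted p below 0.05.

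In OciLy18 anti-IgM changed 1 of 5 tested factors and 2 of their 8 probe sets (3.49% of all probe sets called). Its fragment also changed 1 factor and 2 probe sets (3.96%). Anti-IgG (1.29%), LT20 (0.0573%), rituximab (0%) and the isotype antibody (0%) changed none, with 5, 1, 0 and 1 of 8 probe sets at an unadjusted p below 0.05. In Z138 anti-IgM changed 1 of 6 factors and 2 of their 9 probe sets (2.72% of all). Its fragment changed 3 factors and 4 probe sets (4.31%), and anti-IgG 3 factors and 4 probe sets (5.18%). KLF9 and the KLF6 probe set 208961_s_at passed the signal limit in Z138 only through treated groups and could only be called as rises. LT20 (0.116%), rituximab (0.0942%) and the isotype antibody (0%) changed none, with 4, 4 and 2 of 9 probe sets at an unadjusted p below 0.05.

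The untreated controls 4 to 6 differed from controls 1 to 3 in 2.30% of all probe sets in SUDHL4, 0.873% in OciLy18 and 1.48% in Z138. By the same call rule they differed in 0 of the tested factors, which were 4, 5 and 6 of the 7 in these lines. Below 2-fold there were shifts. In Z138 controls 4 to 6 against controls 1 to 3, KLF13 was 0.46 lower on the log2 scale (712 and 970), KLF12 0.43 lower (229 and 308) and KLF10 0.35 lower (188 and 239.9), with adjusted p of 0.000356, 0.000690 and 0.00162 (limma). In SUDHL4 KLF12 was 0.49 lower in controls 4 to 6 (212 and 297). In OciLy18 the weaker KLF13 probe set 219878_s_at read 103, 78.0 and 80.5 in controls 4 to 6, against 52.6, 54.9 and 62.0 in controls 1 to 3.

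KLF6, a zinc finger activator encoded at chr10:3775996-3785209 (RefSeq, GRCh38.p14), was the factor called most often, and in SUDHL4 it was the factor with the largest rise. After anti-IgG its signals in SUDHL4 were 696, 732 and 650.3, against 118, 112 and 99.6 in controls 4 to 6. LT20 gave 441, 378 and 435, and rituximab 405, 388 and 479, against 131, 124 and 128 in controls 1 to 3. All treated arrays lay above all control arrays. The means were 693 ± 40.9 after anti-IgG against 109.7 ± 9.33 in controls, a 6.32-fold rise (SD, n = 3 arrays each, adjusted p = 1.36e-17), with 3.27-fold after LT20 and 3.30-fold after rituximab (adjusted p = 1.26e-13 and 1.17e-13, limma). Each of the other 3 tested KLF6 probe sets was called in the same 3 comparisons, with rises of 2.98-fold to 6.60-fold, though 2 of the 3 had passed the limit only through these groups. Anti-IgM and its fragment left KLF6 at 118, 112 and 127 and at 129, 128 and 133.3 in SUDHL4, and the 95% intervals of the log2 changes were -0.29 to 0.08 and -0.16 to 0.21.

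In OciLy18 anti-IgM gave KLF6 signals of 475, 496 and 530.03 and its fragment 440.3, 517 and 447, against 212, 201 and 189.9 in controls. The rises were 2.49-fold and 2.32-fold (adjusted p = 9.91e-13 and 3.58e-12), and these were the 2 calls of any factor in OciLy18. After anti-IgG the signals were 257, 285 and 281, against 168, 159 and 184 in controls 4 to 6, a log2 difference of 0.69 (adjusted p = 1.80e-07) that did not reach 2-fold. LT20, rituximab and the isotype antibody gave means of 207, 215 and 211 against 201 in controls.

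REC1 showed KLF6 rises with the same antibodies as OciLy18. Its strongest probe set, 1555832_s_at, read 397, 353 and 343 after anti-IgM and 404, 326 and 418 after the fragment, against 147, 144 and 178 in controls, a rise of 2.34-fold and 2.45-fold (adjusted p = 2.34e-07 and 8.94e-08). For the fragment all 4 tested KLF6 probe sets were called, 1 of which passed the limit only through that group. For whole anti-IgM only this one was, and the others had log2 changes of 0.87, 0.88 and 0.9997. After anti-IgG the signals of 1555832_s_at were 154, 165 and 201, overlapping the controls, with a 95% interval of the log2 change of -0.14 to 0.44. After LT20 they were 235, 236 and 219, a log2 difference of 0.56 (adjusted p = 0.00380).

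In Z138 the main KLF6 probe set read 252, 271 and 275 after anti-IgM and 282, 328 and 288 after its fragment, against 159.74, 158 and 156 in controls. These log2 differences of 0.75 and 0.92 were below 2-fold. The call for the fragment rests on the probe set 208961_s_at, with a mean of 156 ± 11.9 against 76.9 ± 2.23 in controls (2.03-fold, adjusted p = 2.27e-06), a probe set that passed the limit only through treated groups. The call is lost without replicate 1 of the fragment or replicate 2 of the controls, with 16 added to every signal, with quantile normalization, and against the isotype arrays or all 6 controls.

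KLF2 (chr19:16324826-16328685), the quiescence factor whose upstream MEF2 letters are shown above, went the other way in the mantle cell lymphoma lines. In REC1 its signals were 67.3, 46.9 and 81.5 after anti-IgM, 57.99, 69.2 and 62.5 after the fragment and 70.1, 61.5 and 59.9 after the rituximab fragment, against 171, 141 and 124 in controls. All treated arrays lay below all control arrays. The falls were 2.26-fold, 2.28-fold and 2.26-fold (adjusted p = 6.13e-05, 4.75e-05 and 0.000168, limma). Anti-IgG (80.4 ± 27.0), LT20 (72.4 ± 6.22) and rituximab (88.8 ± 17.0) also had lower means than controls (145 ± 23.9, SD, n = 3 each), with log2 differences of -0.91, -0.99 and -0.71 and adjusted p of 0.00106, 0.000683 and 0.0176, short of 2-fold. The isotype antibody gave 120.07, 111 and 108 (log2 difference -0.35, adjusted p = 0.321). Against the isotype arrays in place of the untreated ones, none of the 3 falls kept its call, and the one after anti-IgM was also lost with quantile normalization or without anti-IgM replicate 2.

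In Z138, the line with the highest KLF2 level, anti-IgG gave 318, 443 and 198, against 912, 512 and 619 in controls 4 to 6, a fall of 2.18-fold (adjusted p = 0.000123). The 912 of control replicate 4 stood apart, and the call is lost without it, without anti-IgG replicate 3, or against the isotype arrays or controls 1 to 3. The fragment of anti-IgM gave 267, 352 and 329, against 505, 525 and 521 in controls 1 to 3 (log2 difference -0.72, adjusted p = 0.00684). Whole anti-IgM gave 318, 366 and 512, overlapping the controls.

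OciLy18 had KLF2 values in the opposite direction after anti-IgM and anti-IgG. After anti-IgM they were 104, 128 and 145, against 84.2, 69.1 and 57.3 in controls 1 to 3, and after anti-IgG 167, 119 and 127, against 68.8, 81.9 and 75.4 in controls 4 to 6. The groups did not overlap, and the log2 differences of 0.85 and 0.86 (adjusted p = 0.000975 and 0.00180) stayed below 2-fold. The anti-IgM fragment gave 80.3, 94.4 and 101, overlapping controls 1 to 3. In OciLy18 KLF2 passed the signal limit only through the anti-IgG and anti-IgM groups, so that only a rise could be called. In SUDHL4 the KLF2 group means lay between 9.59 and 19.8 in all groups, too low for a test within the line.

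**Figure D2:**
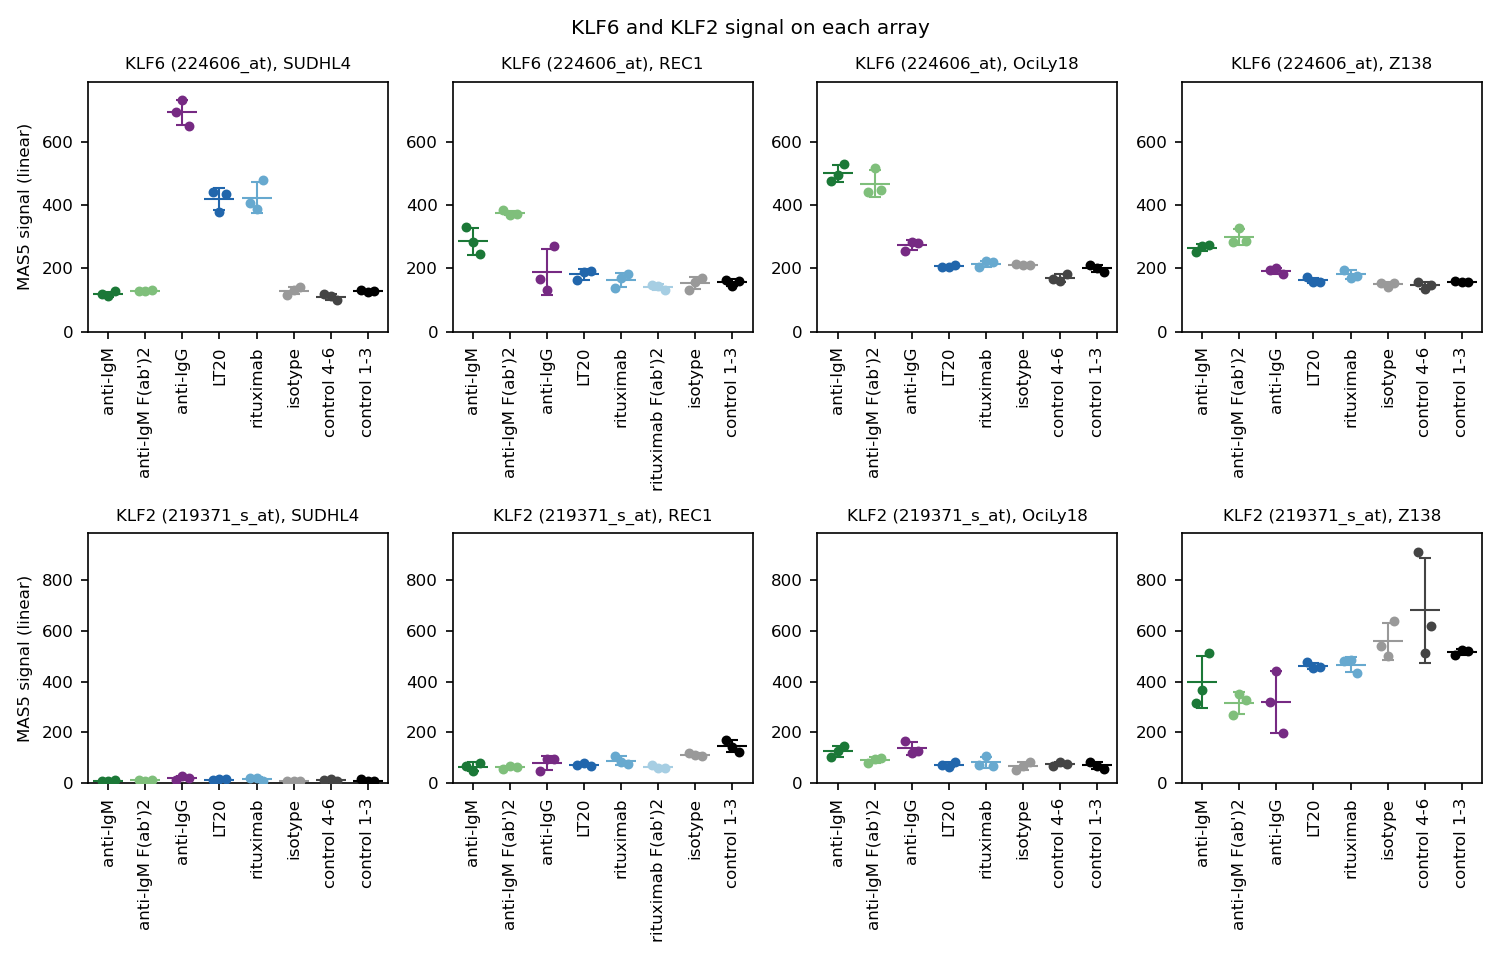
MAS5 signal (linear) of KLF6 (upper row, 224606_at) and KLF2 (lower row, 219371_s_at) on each array of the 4 lines, with antibodies on the left and untreated controls on the right of each panel. Points are arrays and bars mean and SD of 3 arrays, and the KLF6 signals of SUDHL4 after anti-IgG (650.3 to 732) lie above all control arrays.

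KLF10, a SIN3A-binding repressor on chromosome 8 (chr8:102648784-102655725), rose with B-cell receptor antibodies in the 3 lines where it was called. Its single probe set, which in REC1 exceeded the signal limit only in treated groups, read 516, 479 and 518 after anti-IgM in REC1 and 579.92, 599 and 657 after the fragment, against 94.9, 81.1 and 97.95 in controls. Anti-IgG gave 301, 272 and 335, and LT20 174, 189.51 and 208. The means were 612 ± 40.2 after the fragment, 504 ± 21.9 after anti-IgM, 303 ± 31.8 after anti-IgG and 191 ± 17.0 after LT20, against 91.3 ± 8.97 in controls (SD, n = 3 each). The rises were 6.71-fold, 5.54-fold, 3.31-fold and 2.09-fold (adjusted p = 7.61e-16, 6.28e-15, 5.07e-12 and 4.27e-08, limma). The rise after LT20 is lost without LT20 replicate 3 or control replicate 2, with 16 added to every signal, and against the isotype arrays. Rituximab (116 ± 5.41), its fragment (122 ± 8.52) and the isotype antibody (126 ± 17.3) were also above controls, with log2 differences of 0.35, 0.42 and 0.45 and adjusted p of 0.0229, 0.00444 and 0.00727.

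In SUDHL4 anti-IgG gave KLF10 signals of 1136, 1178 and 1069, against 391, 409 and 411 in controls 4 to 6, a 2.79-fold rise (adjusted p = 8.19e-13). LT20 (636, 545 and 690.16) and rituximab (627, 637 and 836) exceeded the controls 1 to 3 (382, 378 and 419.86) on every array. Their log2 differences of 0.66 and 0.82 (adjusted p = 1.31e-06 and 5.30e-08) did not reach 2-fold. In Z138 anti-IgG gave 639, 554 and 642, against 170.39, 191 and 203 in controls 4 to 6 (3.25-fold, adjusted p = 7.88e-14), while anti-IgM gave 260.48, 245 and 232, against 240.11, 244 and 236 in controls 1 to 3 (95% interval of the log2 change -0.13 to 0.19). The anti-IgM fragment lay between, at 356, 385 and 347 (log2 difference 0.59).

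OciLy18, where untreated KLF10 was highest, had no KLF10 call. Anti-IgM gave 689.52, 757 and 757, against 493, 557 and 520.07 in controls, a log2 difference of 0.49 (adjusted p = 8.78e-07).

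KLF13 (chr15:31326835-31435665), known in T lymphocytes as a late regulator of the chemokine gene CCL5, fell in both mantle cell lymphoma lines after the antibodies to the B-cell receptor. In Z138 it read 360.05, 365 and 377 after anti-IgM and 268, 287 and 263 after the fragment, against 1014, 969 and 928 in controls 1 to 3. Anti-IgG gave 139, 158 and 171, against 585, 756 and 795 in controls 4 to 6. No treated and control arrays overlapped. The falls were 2.64-fold, 3.56-fold and 4.54-fold (adjusted p = 2.95e-11, 1.36e-13 and 4.57e-15, limma), and the last is the largest fall of any factor by its main probe set. Against controls 4 to 6 the log2 change after anti-IgM was -0.94, and the gene lost its call. LT20 (714 ± 37.3) and rituximab (743 ± 53.0) lay below controls 1 to 3 (970.05 ± 43.1) but at the level of controls 4 to 6 (712 ± 112).

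In REC1 KLF13 was 248, 251 and 228 after anti-IgM, 251, 251 and 234 after the fragment and 266, 268 and 295 after anti-IgG, against 629.79, 562 and 634 in controls. These are falls of 2.51-fold, 2.48-fold and 2.20-fold (adjusted p = 5.66e-12, 6.23e-12 and 1.01e-10). Against the isotype arrays the log2 changes after the fragment and anti-IgG were -0.99 and -0.82, below 2-fold, and the gene kept its call by its second probe set. All other REC1 treatments had lower means too, and none of them was called by this probe set. LT20 gave 337 ± 23.3, the rituximab fragment 393 ± 33.9, rituximab 431 ± 28.8 and the isotype antibody 487 ± 27.3, against 608 ± 40.6 in controls. The rituximab fragment was called by the second probe set, 219878_s_at, with 46.4 ± 9.51 against 112 ± 21.5 in controls (2.42-fold lower, adjusted p = 0.00431).

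In SUDHL4 KLF13 gave 352, 308 and 325 after LT20 and 360.06, 351 and 359.6 after rituximab, against 548, 571 and 609.51 in controls 1 to 3. Anti-IgG gave 439, 437 and 375, against 565, 599 and 522 in controls 4 to 6. The log2 differences of -0.81, -0.69 and -0.43 (adjusted p = 2.85e-09, 5.16e-08 and 3.59e-05) had non-overlapping arrays and stayed below 2-fold. In OciLy18 KLF13 was 542, 591 and 624 after anti-IgM, against 622, 581 and 552 in controls, with a 95% interval of the log2 change of -0.14 to 0.14.

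**Figure D3:**
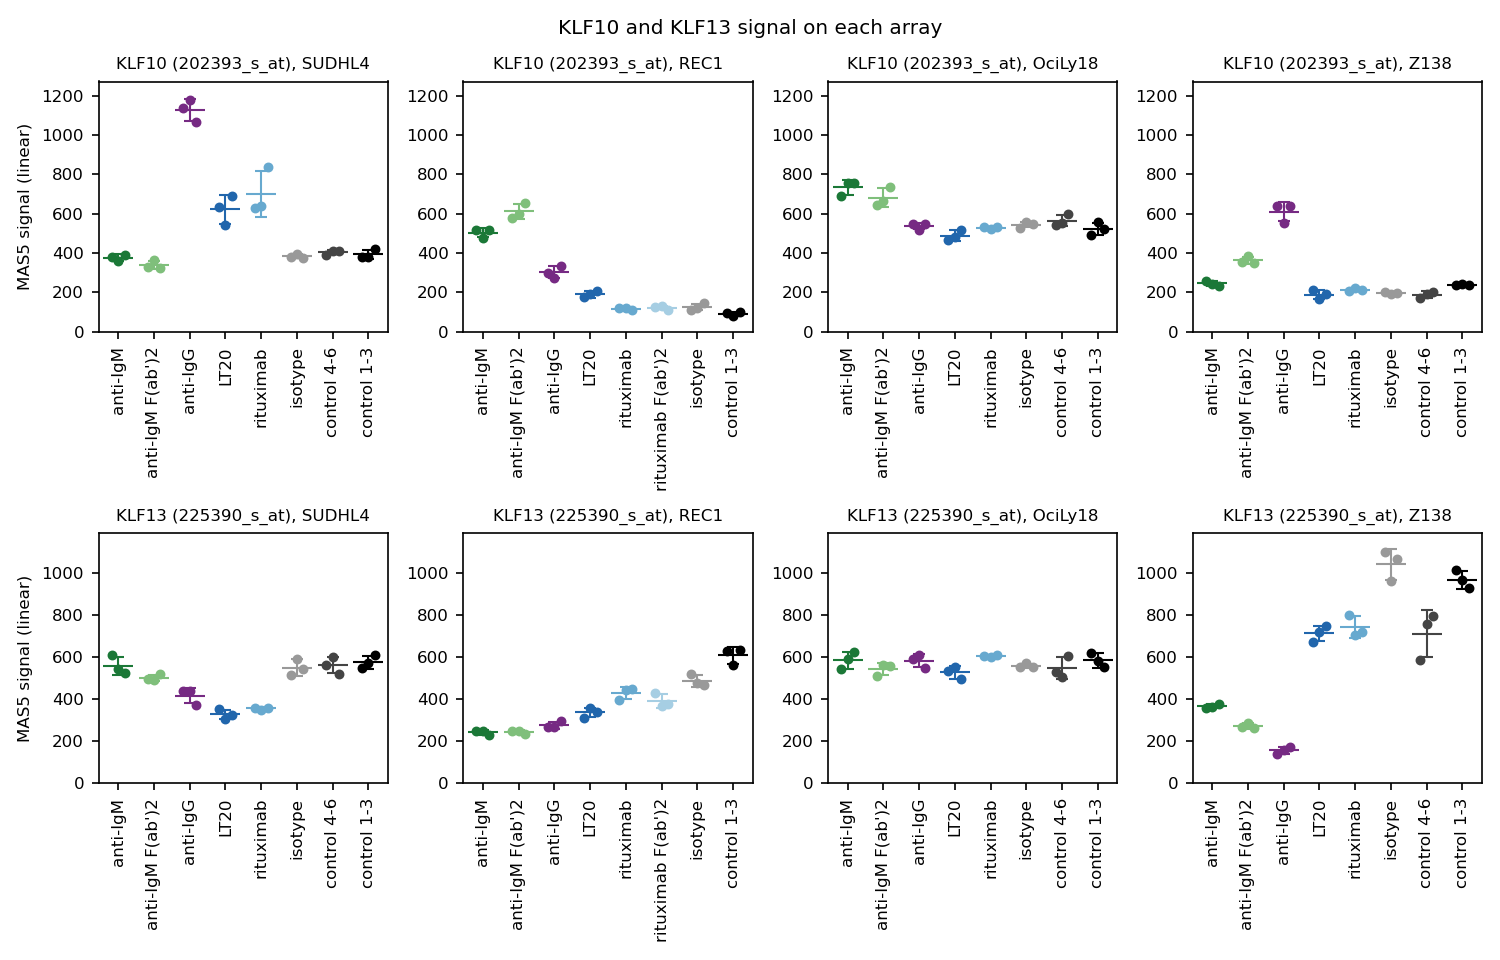
MAS5 signal (linear) of KLF10 (upper row, 202393_s_at) and KLF13 (lower row, 225390_s_at) on each array, with antibodies on the left and untreated controls on the right of each panel, points for arrays and bars for mean and SD. KLF13 in Z138 lies between 139 and 377 after the antibodies to the B-cell receptor, below all control arrays.

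KLF9 (chr9:70384604-70414657), a SIN3A-binding factor known as a target of glucocorticoids, was near the lower limit of measurement. In Z138 it read 98.3, 113 and 100.04 after the anti-IgM fragment, against 46.2, 41.6 and 37.5 in controls, a 2.49-fold rise (adjusted p = 2.77e-07). This call is lost without replicate 2 of the fragment, since the mean then falls below the signal limit. Whole anti-IgM gave 84.5, 79.2 and 83.9 (log2 difference 0.99) and anti-IgG 70.2, 78.9 and 70.2, against 43.6, 25.6 and 30.4 in controls 4 to 6 (log2 difference 1.17, adjusted p = 1.44e-06, limma). Both means were under 100, and the change after whole anti-IgM was also below 2-fold, so neither was called. The probe set 203543_s_at, too low to be tested, read 72.4, 69.2 and 72.8 after anti-IgM and 77.3, 85.5 and 80.7 after the fragment. Controls 1 to 3 read 31.1, 31.7 and 34.5 there.

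KLF12 (chr13:73686089-74306045), a CtBP-binding repressor, went in different directions in the lines. In REC1 it read 84.1, 64.2 and 82.5 after anti-IgM, 89.6, 80.7 and 107 after the fragment and 92.6, 82.7 and 92.2 after anti-IgG, against 197, 199.73 and 209 in controls. The treated arrays lay far below the controls, and the falls were 2.64-fold, 2.20-fold and 2.27-fold (adjusted p = 1.45e-09, 3.72e-08 and 2.82e-08, limma). LT20 gave 132, 164 and 163 (log2 difference -0.40, adjusted p = 0.0114). Against the isotype arrays the fall after the fragment was 0.97 on the log2 scale and was not called.

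In SUDHL4 KLF12 was called after anti-IgG, LT20 and rituximab, and these rises rest on the weaker probe set 214276_at, which passed the signal limit only through these 3 groups. It read 139.9, 163 and 154 after anti-IgG, against 77.3, 77.2 and 66.1 in controls 4 to 6, and 137.51, 109 and 128 after LT20 and 115, 132.9 and 129 after rituximab, against 56.8, 60.3 and 67.95 in controls 1 to 3. The rises of 2.08-fold, 2.02-fold and 2.04-fold (adjusted p = 1.13e-07, 2.36e-07 and 2.29e-07) just exceeded the limit. By the stronger probe set, 227261_at, KLF12 averaged 302 ± 21.9, 377 ± 26.4 and 426 ± 33.6 after these antibodies, against 212 ± 25.5 in controls 4 to 6 and 297 ± 32.3 in controls 1 to 3. These log2 differences were 0.51, 0.34 and 0.52. The KLF12 calls were lost with 16 added to every signal, and the one after LT20 also without control replicate 1, LT20 replicate 1 or LT20 replicate 3, against all 6 controls and against controls 4 to 6. The one after rituximab was lost without control replicate 1 or rituximab replicate 2 and against all 6 controls, and the one after anti-IgG without control replicate 6.

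OciLy18 gave KLF12 values above controls for anti-IgM (238, 213 and 256, against 164, 145 and 136), a log2 difference of 0.67 (adjusted p = 6.34e-07). In Z138 the main probe set differed by 0.22 after anti-IgM, 0.27 after the fragment and -0.36 after anti-IgG on the log2 scale.

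KLF3 (chr4:38664199-38701517), the other CtBP-binding repressor, had a group mean above 100 only in treated REC1 cells. LT20 gave 111, 112 and 117 and the rituximab fragment 104, 117 and 96.4, against 90.7, 71.98 and 80.7 in controls. With log2 differences of 0.48 and 0.38 (adjusted p = 0.0122 and 0.0504) KLF3 was called in none of the 7 comparisons of REC1.

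**Figure D4:**
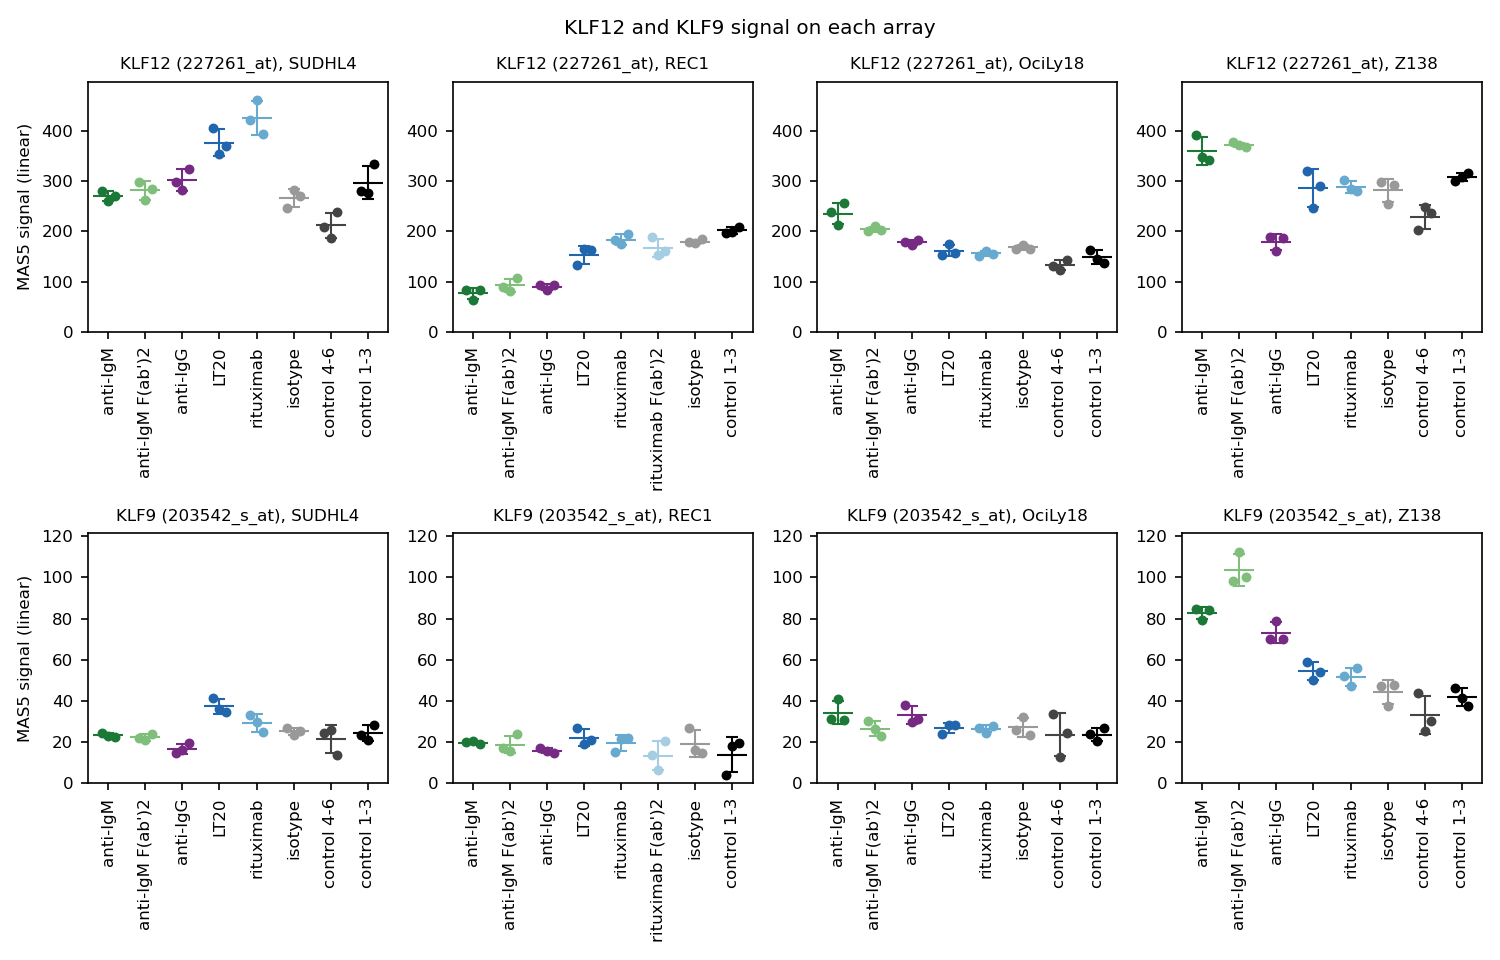
MAS5 signal (linear) of KLF12 (upper row, 227261_at) and KLF9 (lower row, 203542_s_at) on each array, with antibodies on the left and untreated controls on the right of each panel, points for arrays and bars for mean and SD. KLF12 in REC1 lies between 64.2 and 107 after anti-IgM, its fragment and anti-IgG, below the controls (197 to 209).

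Whether lines responded differently was tested by contrasting their log2 changes within a single limma model of the 96 arrays, in 5 combinations of treatment and line pair. After anti-IgG, 3 of 7 factors responded differently in SUDHL4 and REC1, against 9.45% of all probe sets. KLF6 had a log2 change of 2.66 in SUDHL4 and 0.22 in REC1 by the same probe set (difference 2.44 ± 0.16 SE, adjusted p = 2.77e-21). KLF12 had 0.51 and -1.18 (difference 1.69 ± 0.14), and KLF2 0.68 and -0.91 (difference 1.59 ± 0.37), though the KLF2 signals of SUDHL4 are near background. KLF10 was higher in both lines, and its difference was not called. After LT20, 2 of 7 factors differed between SUDHL4 and REC1 (7.21% of all probe sets), KLF6 by 1.495 ± 0.16 and KLF2 by 1.48 ± 0.37.

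After anti-IgM, 4 of 7 factors differed between REC1 and OciLy18 (9.18% of all probe sets). KLF10 had a log2 change of 2.47 in REC1 and 0.49 in OciLy18, KLF13 -1.33 and 0.00, KLF12 -1.40 and 0.67 and KLF2 -1.18 and 0.85. For KLF12 and KLF2 the arrays moved in opposite directions in these lines, with differences of -2.07 ± 0.14 and -2.02 ± 0.37. KLF10 (2.47 and 0.03) and KLF12 (-1.40 and 0.22) differed between REC1 and Z138 (2 of 7, 10.9% of all), and KLF13 (0.00 and -1.40) and KLF2 (0.85 and -0.41) between OciLy18 and Z138 (2 of 7, 2.22% of all). KLF6 was higher in all 3 lines, and none of its differences was called.

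Untreated levels of the factors were compared over the 21 control arrays, 3 in REC1 and 6 in each other line. In the paper OciLy18 was grown in IMDM with more serum, Z138 in DMEM, and REC1 and SUDHL4 in RPMI. Except between REC1 and SUDHL4, a difference between lines therefore cannot be told apart from a difference of medium. The same holds for the responses compared above, and the part of the medium was not tested. Among the 5 factors tested here KLF2 spanned the widest range, with SUDHL4 at 11.4 ± 3.75, OciLy18 at 72.8 ± 9.90, REC1 at 145 ± 23.9 and Z138 at 599 ± 159 (SD). Z138 exceeded OciLy18 by 8.10-fold and REC1 by 4.06-fold (adjusted p = 2.81e-12 and 6.16e-08, limma). SUDHL4 was called lower than Z138 and REC1, and no fold is given because its signals were near background. The levels of REC1 and OciLy18 differed by slightly less than the call requires, at 1.99-fold.

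KLF10 was highest in OciLy18 (544 ± 35.5), followed by SUDHL4 (399 ± 17.2), Z138 (214 ± 30.3) and REC1 (91.3 ± 8.97). REC1 was 5.97-fold below OciLy18, 4.38-fold below SUDHL4 and 2.33-fold below Z138, and Z138 was 2.56-fold below OciLy18. KLF6 varied little, with SUDHL4 at 119 ± 11.7, REC1 at 156 ± 10.8, OciLy18 at 186 ± 19.995 and Z138 at 152 ± 9.20, and no pair was called. KLF12 was 255 ± 53.6, 202 ± 6.16, 141 ± 13.7 and 269 ± 46.2 in these lines. It was lowest in OciLy18, 1.79-fold below SUDHL4 and 1.89-fold below Z138 (adjusted p = 4.02e-06 and 1.34e-06, limma), short of a call, and both pairs were called with controls 1 to 3 only. KLF13 was 569 ± 32.4, 608 ± 40.6, 566 ± 44.8 and 841 ± 160 in these lines. By its second probe set it was 2.04-fold lower in SUDHL4 than in Z138 and 2.07-fold lower in OciLy18 than in Z138, and calls of this size were lost when single control arrays were left out.

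KLF3 was measured in REC1 (81.1 ± 9.38) and OciLy18 (65.1 ± 12.7) and near 0 in SUDHL4 and Z138 (medians 0 and 0.52). KLF9 was at most 46.2 on any control array. By the call rule 2 of 5 tested factors differed between SUDHL4 and REC1 (26.4% of all probe sets), 0 between SUDHL4 and OciLy18 (19.5%), 2 between SUDHL4 and Z138 (21.6%), 1 between REC1 and OciLy18 (24.4%), 2 between REC1 and Z138 (24.6%) and 3 between OciLy18 and Z138 (15.5%). A factor was counted through any of its probe sets, whereas the shares count single probe sets, so that they are not like measures. The KLF13 calls among them rest on its second probe set alone.

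**Figure D5:**
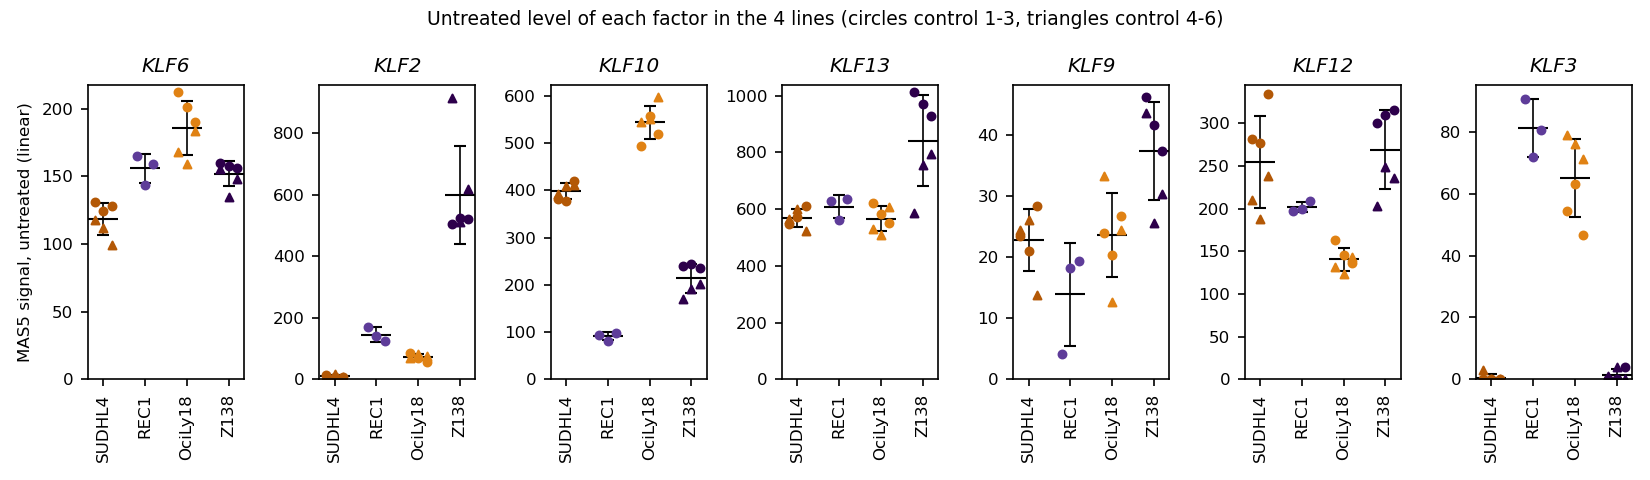
Untreated MAS5 signal (linear) of each factor in the 4 lines, with circles for controls 1 to 3, triangles for controls 4 to 6 and bars for mean and SD. KLF2 is highest in Z138 (505 to 912) and KLF10 lowest in REC1 (81.1 to 97.95).

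Genes known around these factors were followed in 5 lists. Of the lymphocyte targets of KLF2, S1PR1, ITGB7 and CDKN1A were tested in REC1. S1PR1, the receptor by which lymphocytes leave lymphoid organs, fell to 128 ± 9.04 after anti-IgM, 97.7 ± 19.1 after its fragment, 165 ± 28.5 after anti-IgG and 261 ± 34.7 after LT20, against 629 ± 69.9 in controls, or 4.91-fold, 6.50-fold, 3.84-fold and 2.42-fold lower. ITGB7, a homing integrin, fell in the same 4 comparisons (37.5 to 44.97 against 105). CDKN1A, the cell cycle inhibitor that KLF2 is known to activate, rose to 121 after anti-IgM and 121 after the fragment, against 10.4 in controls. Its control mean was below the signal limit, so that CDKN1A could only be called as a rise in REC1. These targets moved both ways, though a fall of CDKN1A could not have been called. Their median log2 change after anti-IgM was -1.37, against -0.03 over all probe sets tested. With 3 genes tested, this median is the value of ITGB7 alone and describes no common shift. ITGB7 also fell in SUDHL4 after anti-IgG (86.6 against 249), LT20 (57.4 against 178) and rituximab (63.8 against 178), a line in which KLF2 itself was near background. CDKN1A rose in SUDHL4 after anti-IgG (107 against 35.8) and in OciLy18 after the anti-IgM fragment (343 against 168). In the SUDHL4 comparison its control mean was again below the signal limit, so that only a rise could be called.

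Among the known inducers of KLF2, MEF2C was called most often. This factor binds MEF2 sites, and whether it binds the letters found upstream of KLF2 was not tested. It rose in OciLy18 after anti-IgM (425 against 165), the fragment (365 against 165) and anti-IgG (343 against 114), in Z138 after anti-IgM (102 against 28.2) and in REC1 after LT20, rituximab and the rituximab fragment, there by at most 2.16-fold. FOXO3 fell and MEF2D rose in Z138 after anti-IgG (291 against 660.25 and 218 against 93.8). The control means of MEF2C and MEF2D in these Z138 comparisons were below the signal limit, so that only rises could be called. In SUDHL4 none of the 6 antibodies changed a gene of this list, and in REC1 neither anti-IgM, its fragment nor anti-IgG did. The median log2 change of the list in OciLy18 was 0.10 after anti-IgM, against -0.02 over all.

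Of the TGF-beta and SMAD genes, TGFB1 rose in OciLy18 after anti-IgM and its fragment (878 and 831 against 339) and in Z138 after anti-IgM, the fragment and anti-IgG (2.34-fold, 2.23-fold and 2.19-fold). The Z138 means were 370 and 354 after anti-IgM and the fragment, against 158 in controls 1 to 3. After anti-IgG the mean was 654, against 304 in controls 4 to 6, so the untreated TGFB1 level differed between the control triplicates. In SUDHL4 the untreated triplicates themselves were called different in TGFB1 (468 in controls 4 to 6, 192 in controls 1 to 3). In REC1, where KLF10 rose most, 3 of 7 tested genes rose after anti-IgM (12.0% of all probe sets were called in either direction), the receptors TGFBR1 (1035 against 514) and TGFBR2 (492 against 202) and the co-repressor TGIF1 (293 against 126). The same 3 rose after the fragment, and SKIL fell after anti-IgG (269 against 597). The list had a median log2 change of 0.50 after anti-IgM in REC1, against -0.03 over all. SMAD3 rose in SUDHL4 after anti-IgG (298 against 101) and in OciLy18 after anti-IgM (112 against 32.5). In the OciLy18 comparison the SMAD3 control mean was below the signal limit, so that only a rise could be called. SMAD4 fell in SUDHL4 after LT20 (94.1 against 199.85).

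Few other family members were measured. Of 18 KLF and SP genes, 5 passed the signal limit for SUDHL4, 5 for REC1, 6 for OciLy18 and 7 for Z138. KLF16 rose in REC1 after anti-IgM (301 ± 41.4), the fragment (255 ± 9.10), anti-IgG (330.46 ± 108) and LT20 (219 ± 24.2), against 101 ± 8.09 in controls. KLF7 (58.1 against 168) and KLF11 (79.0 against 167) fell in Z138 after anti-IgG. Among 11 co-repressors and ligases, with SIN3A, the CtBP genes and WWP1, only the acetyltransferase KAT2B was called, lower in REC1 after anti-IgM (60.6), anti-IgG (48.1) and the rituximab fragment (62.97), against 131 in controls. That is 1 of 9 listed genes tested in REC1. Of all probe sets, 12.0%, 10.6% and 2.89% were called in these comparisons.

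The patterns of the factors over the 96 arrays, as log2 signals centred on each line, are described by Pearson's r with 6161 genes, over arrays that share treatments and controls. KLF6 was most like PPP1R15A (r = 0.94), CCR7 (0.93) and CYSTM1 (0.92), and KLF10 most like GEM (0.90), PIM3 (0.90) and SIAH2 (0.88). KLF13 was most like ETS1 (0.92), BCL11A (0.88) and APBB1IP (0.87). KLF12 had lower values (TMED8, AIDA and MBNL1, each 0.79), and KLF2 lower ones still (ORAI2 0.69, IQGAP2 0.64, TES 0.60). The nearest genes of KLF9 (ENDOD1, 0.61) and KLF3 (ZMIZ1, 0.39) were the least alike. Among the factors themselves KLF6 and KLF10 had r = 0.70, KLF10 and KLF13 -0.72 and KLF2 and KLF13 0.38.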

How the data were processed

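Total RNA of SUDHL4, REC1, OciLy18 and Z138 cells was hybridised to Affymetrix HG-U133 Plus 2.0 arrays. The authors deposited 1 linear signal intensity for each probe set and array, which MAS5 computed per the labels, with nearly equal totals over the arrays. The scaling target is not given in the sources used here. The number of arrays, 3 per group, limits the precision, and the values carry no detection calls. A second deposited table holds the authors' group means and change factors as a ratio of group means, and it was not used. Probe sets were named from the platform annotation (41097 with 1 symbol, 1801 with several, 11777 with none, and 41043 matched to RefSeq).

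Before log2, signals were raised to a minimum of 1. A probe set entered the model of its line, 1 for each line, where any group mean exceeded 100. The models were fitted with limma 3.58.1 in R 4.3.3 (variance trend), with p values adjusted by Benjamini and Hochberg over all probe sets of the comparison. Folds come from the fitted log2 differences, whereas means and SD come from the signals. A single called probe set suffices to call a gene. Untreated lines were compared in a model of 21 control arrays, and responses of lines in a model of all 96 arrays with the probe set of highest mean. The genes and lists were chosen with earlier results of these data known. Named genes are the 7 factors, in each list with a call at most the 3 members of smallest adjusted p, and the 3 genes most like each factor. A gene of the list of KLF2 targets is not reported here. The script was tested on simulated data. Alternatives were another offset, quantile normalization, no signal filter, no variance trend, the main probe set only, a 1.5-fold limit, other reference arrays, a replicate block and leaving out each array in turn.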

Additional observations from a re-analysis of the deposited data

Results flagged for a closer look

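Among groups of 6 control arrays, 1 array lay far from the others by Dixon's criterion, which marks about 1 in 20 groups by chance, in 2 cases. KLF2 in Z138 read 912.21 on control replicate 4, with the next array at 618.54. KLF3 in SUDHL4 read 3.05 on control replicate 4 and 0 on the next, near background.

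In 13 cases the response of a factor differed between lines (limma on the difference of the log2 changes, adjusted over all probe sets). After anti-IgG the log2 change in SUDHL4 minus that in REC1 was 1.59 for KLF2, 2.44 for KLF6 and 1.69 for KLF12 (adjusted p = 0.000290, 2.77e-21 and 3.40e-17). After LT20 it was 1.48 for KLF2 and 1.495 for KLF6 (adjusted p = 0.000823 and 5.72e-12). After anti-IgM, REC1 minus OciLy18 was -2.02 for KLF2, 1.98 for KLF10, -2.07 for KLF12 and -1.33 for KLF13 (adjusted p = 5.63e-06, 5.96e-23, 2.29e-21 and 2.37e-16). REC1 minus Z138 was 2.44 for KLF10 and -1.62 for KLF12 (adjusted p = 6.34e-28 and 1.58e-16). OciLy18 minus Z138 was 1.25 for KLF2 and 1.40 for KLF13 (adjusted p = 0.0101 and 1.84e-16). The KLF2 differences with SUDHL4 rest on signals of at most 27.4 in the SUDHL4 groups compared.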

How the results depend on the processing

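No called treatment change and no called difference of responses changed direction under any alternative. For the untreated comparisons only the calls, not the direction, were followed. In SUDHL4 the 7 calls became 4 with 16 added to every signal and 4 with the main probe set only, since the 3 KLF12 calls were lost, and 11 with a 1.5-fold limit. The 1.5-fold limit gave 6 calls in OciLy18 (2 at 2-fold) and 11 in Z138 (7 at 2-fold). Leaving out single arrays gave 5 to 7 calls in SUDHL4, 15 to 18 in REC1 (16), 2 to 2 in OciLy18, 6 to 7 in Z138, 8 to 11 for untreated lines (10) and 13 to 13 for responses between lines (13). With the isotype arrays as reference REC1 kept 11 of its 16 calls. With the other control triplicate Z138 lost KLF13 after anti-IgM and KLF2 after anti-IgG and gained KLF2 after the fragment. OciLy18 gained a rise of KLF13 after anti-IgG with the other control triplicate, and a rise of KLF2 after anti-IgG with the isotype arrays. These rises run against the falls called for both genes in other lines. In OciLy18 KLF2 and the weaker KLF13 probe set had passed the signal limit only through treated groups. With the replicate number as a block SUDHL4 had 4 calls, REC1 16, OciLy18 2 and Z138 4, the same calls as without it over the comparisons that could be blocked, since anti-IgG and controls 4 to 6 share no numbers. For untreated lines controls 1 to 3 alone gave 13 calls with and without the block. The 3 pairs of same-numbered arrays deviated together (correlation above 0.1) in 1 of 7 comparisons in REC1, 1 of 5 in Z138, and 0 of 5 in SUDHL4 and in OciLy18, and the numbers were therefore not taken to pair the arrays. The arrays carry no detection calls, so that signals near background, as for KLF2 in SUDHL4, have no stated lower limit.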
